A study of Mus musculus with 15 samples.

Results

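The 9 genes described here take vitamin A into intestinal cells, store it or turn it into retinoic acid. They are *Rbp2*, *Lrat*, *Bco1*, *Rdh7*, *Rdh10*, *Dhrs3*, *Aldh1a1*, *Aldh1a2* and *Aldh1a3*, and each was taken as the row with that gene symbol among the 45808 rows of the cecal expression table. All 9 were found, and 8 of them had at least 0.5 FPKM (reads counted on each gene after division by gene length and library depth) in 7 or more mice, the level asked of a gene before it was tested.

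Cecal RNA came from 7 mice with antibiotic-induced microbiome depletion (AIMD) and 8 vehicle-treated mice. Both groups were C57BL/6 mice, male in the study's methods and aged 20 weeks by the sample labels, and carried no named allele. The AIMD group was gavaged 2 times a day for 30 days with 4 antibiotics, neomycin, metronidazole, vancomycin and ampicillin, together with the antifungal amphotericin B, and the vehicle group was gavaged with water on the same schedule. Whole ceca were taken after removal of their content, so that epithelium, muscle and any attached tissue entered the same library. In such bulk RNA, fewer cells of a type and less RNA per cell cannot be told apart.

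Vitamin A reaches the gut as retinyl esters, retinol and plant carotenoids. In enterocytes, Bco1 cleaves beta-carotene to retinaldehyde, Rbp2 carries retinol and retinaldehyde, and Lrat esterifies retinol for storage or export in chylomicrons. Retinol and retinaldehyde are interconverted by dehydrogenases and reductases, the Aldh1a enzymes oxidise retinaldehyde irreversibly to retinoic acid, and retinoic acid acts through nuclear receptors (RAR and RXR) that bind repeats of the half-site AGGTCA.

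The promoters of the 3 genes of uptake, cleavage and storage are shown because they differ in this half-site. RefSeq promoters on GRCm38.p6 were given for 7 of the 9 members. The 250 bases before the transcription start are printed from 5′ to 3′ in the gene's direction, with a half-site on either strand in capitals.
Rbp2 (chr9:98490287-98490536, plus strand): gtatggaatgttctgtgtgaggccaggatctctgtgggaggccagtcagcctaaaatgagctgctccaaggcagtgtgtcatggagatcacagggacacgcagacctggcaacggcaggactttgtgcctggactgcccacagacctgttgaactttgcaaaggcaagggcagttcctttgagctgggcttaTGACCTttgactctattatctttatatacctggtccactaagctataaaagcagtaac
Bco1 (chr8:117095615-117095864, plus strand): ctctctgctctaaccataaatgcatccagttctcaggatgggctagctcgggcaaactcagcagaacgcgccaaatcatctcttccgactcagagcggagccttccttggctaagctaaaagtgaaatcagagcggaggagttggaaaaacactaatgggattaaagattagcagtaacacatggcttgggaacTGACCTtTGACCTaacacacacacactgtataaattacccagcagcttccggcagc
Lrat (chr3:82903975-82904224, minus strand): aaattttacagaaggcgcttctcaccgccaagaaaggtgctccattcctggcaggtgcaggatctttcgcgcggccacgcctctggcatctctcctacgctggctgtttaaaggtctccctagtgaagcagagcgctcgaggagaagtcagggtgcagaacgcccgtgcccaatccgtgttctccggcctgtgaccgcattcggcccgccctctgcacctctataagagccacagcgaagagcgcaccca
The *Rbp2* promoter held 1 half-site, on the opposite strand and beginning 58 bases before the start. The *Bco1* promoter held 2, beginning 56 and 49 bases before the start, and these form a direct repeat with 1 base between them. The *Lrat* promoter held none in this window. Of all 32851 RefSeq mouse promoters of the same length, 250 bases before and 50 after the start, 16.3% held the half-site on either strand and 0.0396% a direct repeat with 1 base between. Direct repeats with 2 or with 5 bases between were also looked for. No promoter of a member held either, and 0.00913% of all promoters held each. *Rdh7* was the remaining member with a half-site, 105 bases before a start. These matches describe letters and are not evidence of binding.

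Among the mice, reads counted on genes ranged from 8679666 to 18108568 in AIMD mice and from 4372401 to 14405933 in vehicle-treated mice. The markers of large-intestinal surface epithelium were present in every mouse, with a summed FPKM of 26330 to 37570 in AIMD mice and of 23590 to 31680 in vehicle-treated mice. Markers of epithelium in general summed to 4134 to 6636 FPKM in AIMD mice and 3497 to 5384 FPKM in vehicle-treated mice. Of these 8 markers 2 were called higher and 1 lower, against 19.4% and 16.7% of all genes tested. The part of epithelial content in the results of the members was not tested. Small-intestinal markers also appeared in some libraries. *Fabp6*, the bile acid-binding protein of the ileum, reached 1041, 1062 and 1718 FPKM in vehicle replicates 5, 7 and 8 and 225 FPKM in AIMD replicate 6. It lay between 1.42 and 69.8 FPKM in the other vehicle-treated mice and between 8.09 and 43.5 FPKM in the other AIMD mice. A clock-gene score, the mean log2 level of 4 genes that peak with *Arntl* minus that of 8 genes in the phase of *Dbp* or *Nr1d1*, split each group. AIMD replicates 1 to 3 and vehicle replicates 1 to 4 had scores of 1.64 to 2.31, and the other mice had scores of -1.17 to -0.15. Where a call of a gene named here ends on one side of either split, the value there is given.

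The members did not move in 1 direction. In AIMD mice *Rbp2*, *Lrat* and *Aldh1a1* were higher, *Dhrs3* and *Aldh1a3* were lower, and *Bco1*, *Rdh10* and *Aldh1a2* did not pass the test (limma, adjusted p under 0.05 over 11983 genes). Thus 5 of the 8 members tested were called, where 36.1% of all genes tested were called. For higher calls this was 3 of 8 members against 19.4% of all genes, and for lower calls 2 of 8 against 16.7%. The median log2 change of the 8 members was 0.12, within a range from -0.70 to 1.70, and that of all genes tested was 0.01. The groups did not overlap for 1 member, *Lrat*, and for 8.56% of all genes tested (5.27% with AIMD mice higher and 3.3% with AIMD mice lower). Without the filter on low levels all 9 members were tested and the same number was called, 5, against 17.4% of 24279 genes.

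**Figure D1:**
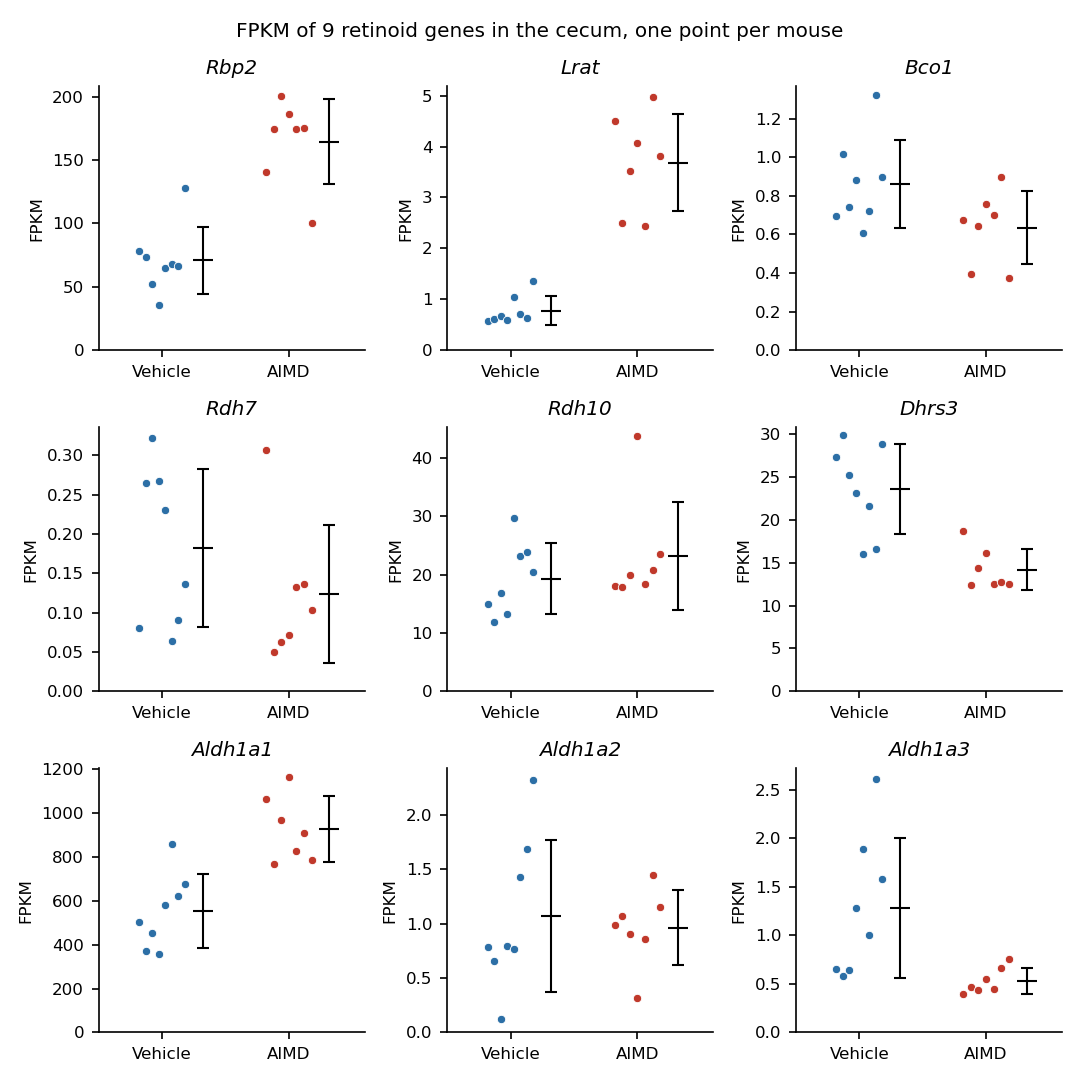
FPKM of the 9 genes in the cecum, one panel per gene, each with its own axis from 0. Points are mice (8 vehicle-treated, blue; 7 AIMD, red), and bars show the mean and SD. All AIMD mice lie above all vehicle-treated mice for Lrat, whereas for Aldh1a2 the AIMD points, from 0.318 to 1.45, lie inside the vehicle-treated range of 0.119 to 2.32.

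FPKM is scaled by gene length, so levels can be set side by side between genes. In vehicle-treated mice *Aldh1a1* was the highest of the 9, followed by *Rbp2*, then by *Dhrs3* and *Rdh10*, whose ranges over mice overlapped. *Aldh1a3*, *Aldh1a2*, *Bco1* and *Lrat* had mean levels from 0.779 to 1.28 FPKM with overlapping ranges, and *Rdh7* was lowest. In AIMD mice *Rdh10* (mean 23.2 FPKM) stood before *Dhrs3* (14.2 FPKM), still with overlapping ranges. *Lrat* alone left the low genes: its lowest AIMD mouse, at 2.45 FPKM, was above every AIMD value of *Aldh1a2*, *Bco1*, *Aldh1a3* and *Rdh7*.

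*Rbp2*, the intestinal cellular retinol-binding protein, lies on the plus strand of chromosome 9 (98486115 to 98509781, GRCm38). Its lowest, median and highest levels were 101, 175 and 200 FPKM in AIMD mice, against 36.1, 67.2 and 128 FPKM in vehicle-treated mice. The ranges touched through 1 mouse, vehicle replicate 8, and 6 of 7 AIMD mice exceeded it. The mean level was 165 ± 33.5 FPKM (SD, n = 7) in AIMD mice and 71.0 ± 26.7 FPKM (SD, n = 8) in vehicle-treated mice, a ratio of 2.32. On the log2(FPKM + 0.5) scale, used for all log2 changes here, this was a change of 1.26 (standard error 0.21, limma adjusted p = 0.000298). An exact two-sided permutation test over all splits into 7 and 8 mice gave p = 0.000466.

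Vehicle replicate 8 was also the mouse with the most *Fabp6*, 1718 FPKM, and with the most *Apoa1*, 195.8 FPKM. *Rbp2* is itself expressed in small-intestinal enterocytes, and of that cell type's 14 markers 10 passed the filter, 3 were higher in AIMD mice and none was lower. Over all genes tested, 19.4% were higher and 16.7% lower. One of the 3 markers, *Mep1a*, had at least 167.5 FPKM in every mouse. The summed level of the 14 markers was 259.5 to 685 FPKM in AIMD mice and 225 to 2313 FPKM in vehicle-treated mice, and none was at 0 in all mice. Over the 6 AIMD mice and 5 vehicle-treated mice with *Fabp6* under 100 FPKM, a choice made after the data were seen, *Rbp2* ranged from 101 to 200 FPKM and from 36.1 to 78.1 FPKM and no longer overlapped. The log2 change there was 1.41 (limma adjusted p = 0.000601). In these mice other small-intestinal genes still differed in level, with *Apoa1* at 5.19 to 48.0 FPKM in AIMD mice and 0.174 to 7.42 FPKM in vehicle-treated mice, and *Apoa4* at 1.51 to 3.65 FPKM and 0 to 0.149 FPKM. The part of small-intestinal cells in the *Rbp2* result was not tested.

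*Lrat*, lecithin retinol acyltransferase, makes the retinyl esters in which vitamin A is stored, and lies on the minus strand of chromosome 3 (82892579 to 82903973). Its levels were low, at 2.45, 3.81 and 4.96 FPKM (lowest, median, highest) in AIMD mice and 0.585, 0.654 and 1.37 FPKM in vehicle-treated mice. These levels rested on 160 to 421 reads per AIMD mouse but on only 22 to 44 reads per vehicle-treated mouse. Every AIMD mouse was above every vehicle-treated mouse, a separation that 5.27% of all genes tested showed in this direction. The mean was 3.69 ± 0.952 FPKM (SD, n = 7) against 0.779 ± 0.282 FPKM (SD, n = 8), a ratio of 4.73. In limma the log2 change was 1.70 with a standard error of 0.16 (adjusted p = 1.28e-06), and the exact permutation test gave p = 0.000155, the smallest it can give for 7 mice against 8. *Lrat* had the largest change of the members tested, and the added 0.5 FPKM lowers it: on recovered reads limma voom gave 2.31. Vehicle replicate 8 was again the highest of its group, and with *Fabp6* under 100 FPKM the ranges were 2.45 to 4.50 FPKM and 0.585 to 0.724 FPKM.

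*Rbp2* exceeded *Lrat* in every mouse, but less so in AIMD mice. The ratio of their FPKM ran from 26.4 to 71.4 (median 45.9) in AIMD mice and from 61.3 to 133.5 (median 93.9) in vehicle-treated mice.

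*Bco1*, beta-carotene oxygenase 1 (chromosome 8, plus strand, 117095854 to 117133720), stood near the lower end of what could be tested. It had 0.375, 0.675 and 0.898 FPKM (lowest, median, highest) in AIMD mice and 0.609, 0.813 and 1.32 FPKM in vehicle-treated mice, from 8 to 35 reads per mouse. Means were 0.635 ± 0.190 FPKM (SD, n = 7) and 0.861 ± 0.228 FPKM (SD, n = 8). The log2 change of -0.26 (95% confidence interval -0.55 to 0.02) did not pass the test (limma adjusted p = 0.139), nor did the exact permutation test at p = 0.0549. The 2 AIMD mice below all vehicle-treated mice had 11 and 12 reads.

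**Figure D2:**
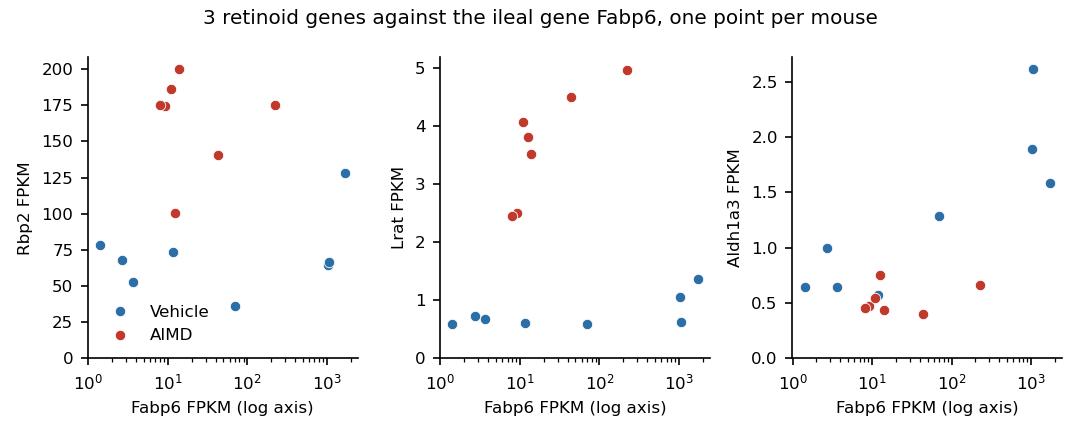
FPKM of Rbp2, Lrat and Aldh1a3 (vertical axes, from 0) against FPKM of the ileal gene Fabp6 (horizontal log axis), one point per mouse (7 AIMD, red; 8 vehicle-treated, blue). The 3 vehicle-treated mice at 1041 to 1718 FPKM of Fabp6 include the highest Rbp2 and Lrat values of their group, and all of them lie above the other vehicle-treated mice for Aldh1a3.

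Of the enzymes between retinol and retinaldehyde, *Rdh10* catalyses the oxidation that limits retinoic acid supply in the embryo, and *Dhrs3* reduces retinaldehyde back to retinol. *Rdh10* (chromosome 1, plus strand, 16105774 to 16133734) had 17.8, 19.9 and 43.7 FPKM (lowest, median, highest) in AIMD mice and 11.9, 18.6 and 29.7 FPKM in vehicle-treated mice. One AIMD mouse, replicate 4, stood apart, and the remaining 6 lay inside the vehicle-treated range. Means were 23.2 ± 9.25 FPKM (SD, n = 7) and 19.3 ± 6.10 FPKM (SD, n = 8). The log2 change was 0.25 with a 95% confidence interval of -0.20 to 0.70 (limma adjusted p = 0.376, exact permutation p = 0.309), so that changes of up to 0.70 remain inside the interval. Without AIMD replicate 4 the log2 change was 0.09.

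*Dhrs3* (chromosome 4, plus strand, 144892827 to 144928209) had 12.4, 12.8 and 18.7 FPKM (lowest, median, highest) in AIMD mice and 16.02, 24.1 and 29.9 FPKM in vehicle-treated mice. In 5 of 7 AIMD mice it was below every vehicle-treated mouse. The means of 14.2 ± 2.41 FPKM (SD, n = 7) and 23.6 ± 5.27 FPKM (SD, n = 8) gave a log2 change of -0.69 (standard error 0.15, limma adjusted p = 0.00202, exact permutation p = 0.00155). *Dhrs3* is known to be induced by retinoic acid in many tissues.

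Because *Rdh10* and *Dhrs3* act in opposite directions on the same pair of metabolites, their ratio was formed in each mouse. *Rdh10* over *Dhrs3* was 0.970, 1.47 and 2.71 (lowest, median, highest) in AIMD mice and 0.397, 0.689 and 1.85 in vehicle-treated mice. The ranges overlapped, and the ratio is of transcripts, not of activities.

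*Rdh7* (chromosome 10, minus strand, 127884028 to 127888817), a retinol dehydrogenase, was close to absent. It had 0.0497 to 0.307 FPKM in AIMD mice and 0.0641 to 0.322 FPKM in vehicle-treated mice, that is 1 to 9 reads and 1 to 6 reads per mouse and 21 reads in all in each group. No mouse reached 0.5 FPKM, and the exact permutation test gave p = 0.240. A difference was not detectable at this depth. In addition, 12.9% of the 50-base windows of its transcripts also occur, on either strand, in transcripts of other genes, mostly in those of *Rdh18-ps*.

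At the last step 1 transcript made up nearly all of the measured level. *Aldh1a1* (chromosome 19, plus strand, 20492715 to 20643465), a cytosolic retinaldehyde dehydrogenase, made up 99.8% to 99.9% of the summed FPKM of the 3 Aldh1a genes in AIMD mice and 99.3% to 99.8% in vehicle-treated mice. Its levels were 767, 911 and 1165 FPKM (lowest, median, highest) in AIMD mice and 359, 541 and 860 FPKM in vehicle-treated mice. In 4 of 7 AIMD mice it was above the highest vehicle-treated mouse, replicate 6. The mean was 926 ± 149 FPKM (SD, n = 7) against 553 ± 169 FPKM (SD, n = 8), a ratio of 1.68. The log2 change was 0.79 (standard error 0.18, limma adjusted p = 0.00348, exact permutation p = 0.00140).

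*Aldh1a1* was also described on each side of the clock-gene score. Among the mice with high scores it was 767 to 1062 FPKM in 3 AIMD mice and 359 to 502 FPKM in 4 vehicle-treated mice, a log2 change of 1.15 (limma adjusted p = 0.00573). Among the mice with low scores it was 784 to 1165 FPKM in 4 AIMD mice and 580 to 860 FPKM in 4 vehicle-treated mice, a log2 change of 0.43 that did not pass the test (limma adjusted p = 0.171). The AIMD levels were alike on both sides, whereas vehicle-treated mice had 421 ± 68.1 FPKM (SD, n = 4) with high scores and 685 ± 123 FPKM (SD, n = 4) with low scores. Whether the changes differ between the sides was not tested. Of the 4 vehicle-treated mice with low scores, 3 were those with 1041 to 1718 FPKM of *Fabp6*, so the 2 splits largely coincide there. Over the mice with *Fabp6* under 100 FPKM the log2 change was 0.93 (limma adjusted p = 0.00741). With the score as a covariate over all mice, the log2 change was 0.76 (limma adjusted p = 0.00116).

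*Aldh1a7*, the closest relative of *Aldh1a1*, shares 151 transcript windows of 50 bases with it, 7.49% of those of *Aldh1a7* and 3.06% of those of *Aldh1a1*, and was also higher. It had 43.4 ± 7.08 FPKM (SD, n = 7) in AIMD mice and 22.6 ± 4.11 FPKM (SD, n = 8) in vehicle-treated mice. The groups did not overlap, as for 5.27% of all genes tested in this direction, and the log2 change was 0.93 (limma adjusted p = 6.28e-05). The ratio of *Aldh1a1* to *Aldh1a7* was 17.0 to 25.0 in AIMD mice and 18.8 to 36.9 in vehicle-treated mice, with medians of 22.2 in both groups. Reads from the shared windows cannot be given to either gene.

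*Aldh1a2* (chromosome 9, plus strand, 71215789 to 71296243), the retinaldehyde dehydrogenase of mesothelium, stroma and intestinal dendritic cells, was low in both groups. It had 0.318, 0.986 and 1.45 FPKM (lowest, median, highest) in AIMD mice and 0.119, 0.788 and 2.32 FPKM in vehicle-treated mice, with 2 to 43 reads per mouse. Means were 0.961 ± 0.344 FPKM (SD, n = 7) and 1.07 ± 0.697 FPKM (SD, n = 8), and the log2 change was -0.01 with a 95% confidence interval of -0.56 to 0.54 (limma adjusted p = 0.972, exact permutation p = 0.963). The direction changed with the setting, and a change of up to about 0.5 in either direction lies inside the interval. Dendritic cell markers were also low, with a summed FPKM of 2.40 to 5.30 in AIMD mice and 1.95 to 5.70 in vehicle-treated mice, and mesothelial markers with 3.33 to 9.09 and 1.80 to 10.1. Fibroblast markers were higher, with a summed FPKM of 35.7 to 84.9 in AIMD mice and 27.7 to 119.9 in vehicle-treated mice. The part of these cell types in the *Aldh1a2* result was not tested.

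*Aldh1a3* (chromosome 7, minus strand, 66390890 to 66427517), a further retinaldehyde dehydrogenase, had 0.397, 0.470 and 0.752 FPKM (lowest, median, highest) in AIMD mice and 0.577, 1.14 and 2.61 FPKM in vehicle-treated mice. In 5 of 7 AIMD mice it was below every vehicle-treated mouse. It rested on 21 to 79 reads per mouse and would have passed the filter through the vehicle-treated group alone, all 8 of which exceeded 0.5 FPKM. Means were 0.530 ± 0.131 FPKM (SD, n = 7) and 1.28 ± 0.719 FPKM (SD, n = 8), with a log2 change of -0.70 (standard error 0.21, limma adjusted p = 0.0150, exact permutation p = 0.00684).

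This call held with any single mouse left out (limma adjusted p of at most 0.0324), but not in each smaller set of mice. The 3 vehicle-treated mice with 1041 to 1718 FPKM of *Fabp6* had 1.58 to 2.61 FPKM of *Aldh1a3*, and the other 5 had 0.577 to 1.29 FPKM. Over the mice with *Fabp6* under 100 FPKM the log2 change was -0.38 and did not pass the test (limma adjusted p = 0.0795). All 3 of these mice also had low clock-gene scores. The log2 change was -0.43 among mice with high scores (limma adjusted p = 0.168) and -0.999 among mice with low scores (limma adjusted p = 0.0153). Smooth muscle markers summed to 156 to 588 FPKM in AIMD mice and to 400 to 2201 FPKM in vehicle-treated mice, with the highest *Tagln*, 1136 FPKM, in vehicle replicate 8. Of the 5 muscle markers 1, *Tagln*, was called lower, against 16.7% of all genes tested. All 5 had negative log2 changes, from -1.17 for *Tagln* to -0.58 for *Cnn1*, with a median of -0.92. The part of these tissues in the results of *Aldh1a3* and of the other members was not tested.

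**Figure D3:**
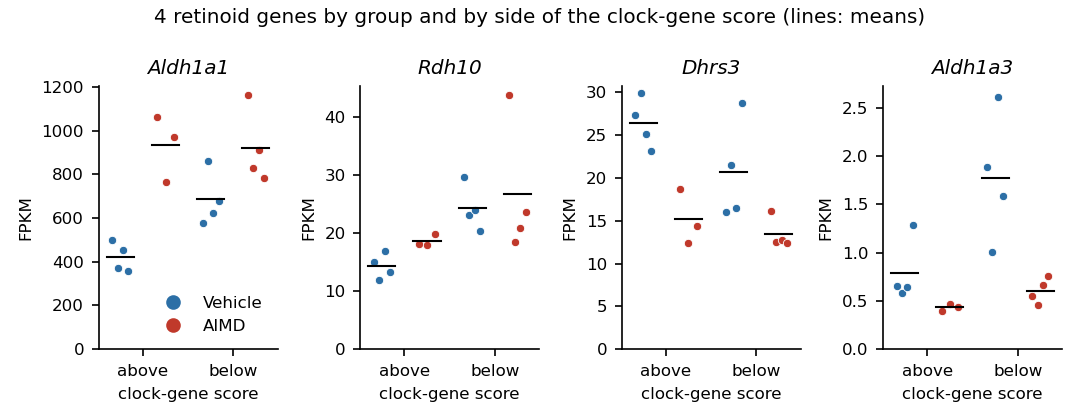
FPKM (axes from 0) of Aldh1a1, Rdh10, Dhrs3 and Aldh1a3 in mice with a clock-gene score above or below the median of their group. Points are mice (vehicle-treated, blue, 4 and 4; AIMD, red, 3 above and 4 below) and lines are means. For Aldh1a1 the vehicle-treated mean rises from 421 to 685 between the sides while the AIMD means stay at 932 and 922. The vehicle-treated mice below the median include the 3 with 1041 to 1718 FPKM of Fabp6.

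The other members called kept their direction on both sides of the clock-gene score. *Rbp2* changed by 1.55 on the log2 scale with high scores and by 0.98 with low scores, and *Lrat* by 1.81 and 1.57, all past the test. *Dhrs3* fell by 0.79 with high scores and had a log2 change of -0.57 with low scores, where it no longer passed (limma adjusted p = 0.0690). In vehicle-treated mice *Rdh10* was lower with high scores, at 11.9 to 16.9 FPKM against 20.4 to 29.7 FPKM with low scores. In AIMD mice the sides overlapped, at 17.8 to 19.9 FPKM with high scores and 18.4 to 43.7 FPKM with low scores. The vehicle-treated means of 14.3 and 24.3 FPKM on the 2 sides lay further apart than the means of the 2 groups. The vehicle-treated mice with low scores include the 3 with 1041 to 1718 FPKM of *Fabp6*, and the part of either split was not tested.

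A further 53 genes of retinoid handling were found in the table and 35 were tested. Of these, 10 were higher and 9 lower in AIMD mice and 16 did not pass, with a median log2 change of -0.03. Of all genes tested, 19.4% were higher and 16.7% lower. The lower calls numbered 5 without AIMD replicate 1, 5, 6 or 7 or vehicle replicate 4. The 18 genes not tested had mean levels of at most 0.510 FPKM in either group.

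Among 13 genes of uptake, transport and esters, 11 were tested, 1 was higher and 5 were lower (19.4% and 16.7% of all genes tested), with a median log2 change of -0.49. The lower calls of *Cd36*, a fatty acid and carotenoid transporter, and *Rbp4*, the plasma retinol carrier, were near the threshold (limma adjusted p = 0.0455 and 0.0495) and were lost without the filter on low levels (0.0931 and 0.104). Neither call was followed on the sides of the clock-gene score or of *Fabp6*. *Isx*, the homeobox factor that represses *Bco1* and *Scarb1* in the gut, was well expressed and fell from 322 ± 64.3 FPKM (SD, n = 8) to 201 ± 40.5 FPKM (SD, n = 7), a log2 change of -0.67 (limma adjusted p = 0.00301). *Scarb1* itself, a carotenoid receptor, was at 0.290 and 0.306 FPKM in AIMD and vehicle-treated mice, below the filter.

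*Lpl*, the lipase that also frees retinol from lipoprotein esters, had a log2 change of -1.31 (limma adjusted p = 1.25e-05), and *Stra6l*, a receptor for the plasma retinol carrier, one of 0.66 (limma adjusted p = 0.000234). Neither overlapped between groups, where 3.3% of all genes tested did not overlap with AIMD mice lower and 5.27% with AIMD mice higher. Adipocyte markers summed to 0 to 8.95 FPKM in AIMD mice and 0.272 to 13.6 FPKM in vehicle-treated mice. Of the 5 markers 2 were tested and 1, *Adipoq*, was called lower, against 16.7% of all genes tested. The part of adipocytes in the *Lpl* result was not tested.

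Of 21 other oxidoreductases in the table, 13 were tested, 5 were higher and 4 lower, against 19.4% and 16.7% of all genes tested. *Dhrs9*, which oxidises retinol, had 3.83 to 12.5 FPKM in AIMD mice and 1.46 to 3.67 FPKM in vehicle-treated mice and rose by 1.36 on the log2 scale (limma adjusted p = 0.000140). Among enzymes that can reduce retinaldehyde, *Dhrs4* rose by 0.62 (limma adjusted p = 0.00139) and *Akr1b7* fell by 0.78 (limma adjusted p = 0.000497). *Rdh13*, a mitochondrial relative, rose by 0.84 (limma adjusted p = 0.00116). None of these 4, which were named for their small adjusted p, overlapped between groups. Of all genes tested, 5.27% did not overlap with AIMD mice higher and 3.3% with AIMD mice lower. Of the windows of *Akr1b7*, 15.8% occur in other transcripts on either strand. Of 4 other aldehyde dehydrogenases, 3 were tested and 2 were higher, against 19.4% of all genes tested. These were *Aldh1a7* and *Aldh1b1*, a mitochondrial enzyme with a log2 change of 0.63 (limma adjusted p = 0.00615).

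**Figure D4:**
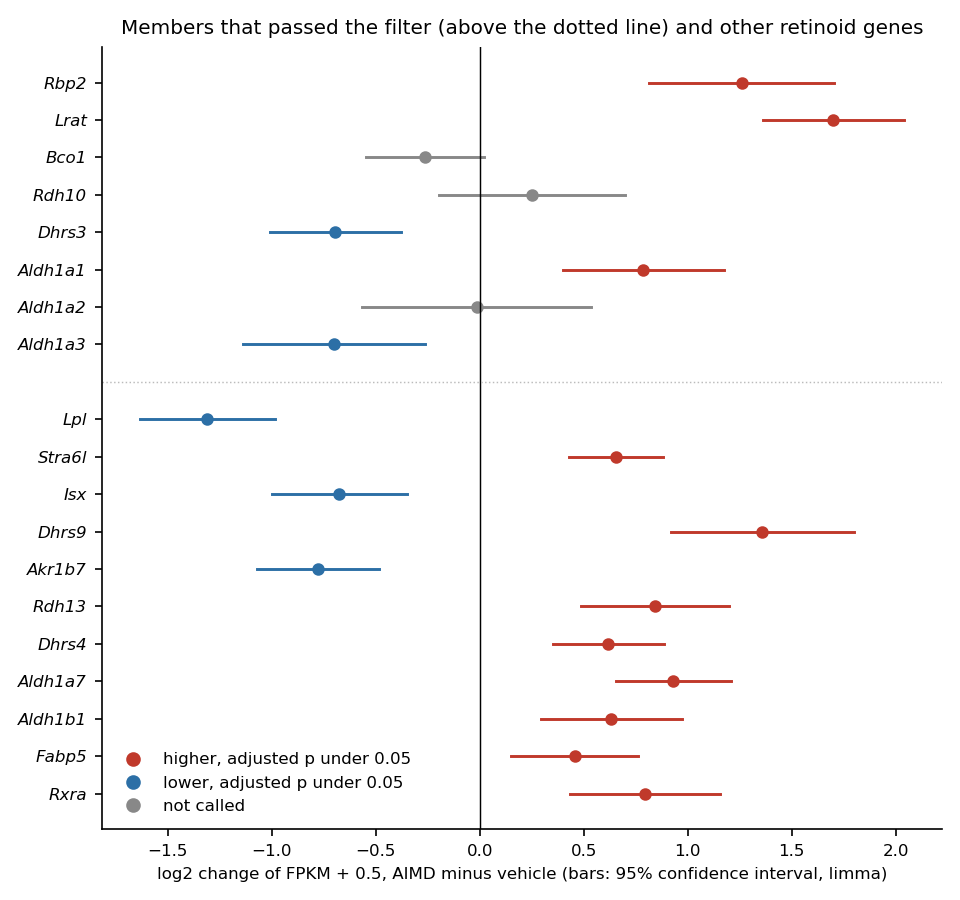
Log2 change of FPKM + 0.5 (AIMD minus vehicle-treated, 7 against 8 mice) with 95% confidence intervals from limma for the 8 members tested, above the dotted line, and for 11 other retinoid genes chosen because they were called, below it. Colours mark higher (red), lower (blue) and not called (grey). Lrat, at 1.70, and Lpl, at -1.31, lie at the ends of the range shown.

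Genes that bind, break down or sense retinoic acid were mostly low. Of 6 genes of binding and breakdown only *Fabp5*, a fatty acid-binding protein that also carries retinoic acid, was tested. It was higher, as were 19.4% of all genes tested, with a log2 change of 0.46 (limma adjusted p = 0.0209). The 3 Cyp26 hydroxylases, which degrade retinoic acid, had mean levels of at most 0.339 FPKM, and *Cyp26c1* was listed at 0 in all mice. Of 6 receptors 5 were tested and 1 was called higher, where 19.4% of all genes tested were higher. It was *Rxra*, the shared partner of many nuclear receptors, with 13.0 ± 2.76 FPKM (SD, n = 7) against 7.42 ± 2.31 FPKM (SD, n = 8), a log2 change of 0.80 (limma adjusted p = 0.00202). Among the mice with high clock-gene scores, 5 of the named genes kept their direction but did not pass the test. There *Rxra*, *Stra6l* and *Aldh1b1* had log2 changes of 0.74, 0.54 and 0.58 (limma adjusted p = 0.0566, 0.0529 and 0.0695), close to those over all mice. *Isx* and *Fabp5* had smaller ones, of -0.41 and 0.28 (limma adjusted p = 0.179 and 0.375). *Fabp5* also did not pass among the mice with low scores, with a log2 change of 0.62 (limma adjusted p = 0.0527). Over the mice with *Fabp6* under 100 FPKM, *Aldh1b1* and *Fabp5* had log2 changes of 0.48 and 0.37 and did not pass (limma adjusted p = 0.0596 and 0.0813).

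Of 12 genes known to be induced by retinoic acid in some tissue, 7 were tested, and they moved both ways. *Lrat* was higher, 3 were lower, among them *Dhrs3* and *Isx*, and 3 did not pass, with a median log2 change of -0.29. The shares over all genes tested were 19.4% higher and 16.7% lower. *Rarb*, a receptor gene and common readout of retinoic acid, had 1.32 ± 0.303 FPKM (SD, n = 7) in AIMD mice and 1.88 ± 1.07 FPKM (SD, n = 8) in vehicle-treated mice (log2 change -0.29, limma adjusted p = 0.338). Of its 50-base windows 34.1% occur in other transcripts on either strand, 1655 of these 1833 in those of *Top2b*. The libraries were stranded, so windows shared only on the opposite strand need not be ambiguous.

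For *Aldh1a1*, the member with the highest level, and *Lrat*, the member called with the largest change, the genes with the most similar profile over the 15 mice were sought after centring each group on its own mean. For *Aldh1a1* these were *Cyp3a13* (Pearson r 0.92, Spearman rho 0.94), *Mtmr11* (r 0.91, rho 0.90) and *Dcaf12* (r 0.87, rho 0.94). For *Lrat* they were *Fam84a* (r 0.85, rho 0.79), *Ppp3r1* (r 0.83, rho 0.77) and *Fam134b* (r 0.81, rho 0.85). The mice share library, depth and clock-gene score in these comparisons, and the values are given as a description.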

How the data were processed

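Stranded poly-A libraries of cecal RNA (7 AIMD, 8 vehicle) were sequenced with single reads. Per the study's methods and the submitters' processing notes, the authors mapped reads with STAR to GRCm38, obtained gene counts from featureCounts with a GENCODE annotation, and ran DESeq2 with terms for treatment and for the time of sacrifice. The deposited values are FPKM per gene symbol in each mouse, and 4 rows with a repeated symbol were dropped. The sample labels do not give the time of sacrifice, and a clock-gene score stands in for it in the alternatives. The authors' own tests are not used here.

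FPKM were scaled by size factors from the median of ratios (1.01 in all mice), 0.5 was added and log2 taken. A gene was tested where 7 or more mice had 0.5 FPKM or more. Tests used limma 3.58.1 (lmFit, then eBayes with a trend, in R 4.3.3), two-sided, with Benjamini-Hochberg adjustment over all genes tested and a threshold of 0.05. Single genes were also compared by exact permutation. Whole reads, within 0.01 of a whole number, were recovered for 99.9959% of genes above 0, and limma voom on them called 4439 genes. No molecular identifiers are described, so reads can include PCR copies. On simulated data limma called 87% of genes with a log2 change of 1 and 100% with a change of 2, 100 genes each among 11983. Values were drawn from normal distributions and all other genes were left unchanged, whereas 36.1% of the real genes were called. These shares average over genes and do not give the power for members with few reads. Python 3.11.15 was used with scipy 1.17.1, pandas 2.3.3, matplotlib 3.10.9 and numpy 2.4.6.

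The members and lists were chosen with earlier results of these data known. Named beside the members were up to 4 called genes per class, by adjusted p, and the genes most similar to *Aldh1a1* and *Lrat*. One gene under this rule is not reported here, and the counts include it. Values of *Scarb1*, *Cd36*, *Rbp4*, *Rarb*, *Apoa1* and *Apoa4*, the *Cyp26* genes and single tissue markers were added after they were seen. Gene positions are those of GENCODE M21 and promoters those of RefSeq, and *Rdh16f2* was not found in the table. In the study's methods several mice shared a cage, and the labels do not give the cage of each mouse. Mice of a cage may not be independent, so p-values measure the spread between these mice and not between cages. Liver, serum and stool measurements were not analysed here.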

Additional observations from a re-analysis of the deposited data

Results flagged for a closer look

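Among 40 sets of values (20 genes in each group), 4 had a mouse whose distance from its nearest neighbour took up more of the group's range than Dixon's test allows (0.568 of the range for 7 mice, 0.526 for 8). Chance alone gives such a mouse in about 5% of sets. *Rbp2* was 128 FPKM in vehicle replicate 8, with the next vehicle-treated mouse at 78.1 FPKM. *Rdh10* was 43.7 FPKM in AIMD replicate 4, with the next AIMD mouse at 23.6 FPKM. *Rdh7* was 0.307 FPKM in AIMD replicate 1, with the next AIMD mouse at 0.136 FPKM, a gap between 9 and 3 reads. *Aldh1b1* was 59.9 FPKM in vehicle replicate 2, with the next vehicle-treated mouse at 38.6 FPKM. Of these mice, vehicle replicate 8 also had the highest *Fabp6* and *Apoa1*. Without it the log2 change of *Rbp2* was 1.39, and the cause of the 4 values was not tested.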

How the results depend on the processing

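Other pseudocounts, scalings, filters and tests, the clock-gene covariate and each mouse left out in turn kept the 3 higher members, *Rbp2*, *Lrat* and *Aldh1a1*, past the threshold. Members called numbered 5 with any single mouse left out (3 higher and 2 lower), 4 where *Fabp6* was under 100 FPKM and 3 below the clock-gene median. Over all genes, 4320 were called in the main fit and 3555 to 4643 with a mouse left out. With *Fabp6* under 100 FPKM 3635 were called, and below the clock-gene median 2481. Lower calls over all genes were 1997 in the main fit, 1784 with a filter at FPKM 1 and 1704 with *Fabp6* under 100 FPKM. Lower members numbered 1 with a filter at FPKM 1, which leaves *Bco1*, *Aldh1a2* and *Aldh1a3* untested, 1 above and 1 below the clock-gene median and 1 with *Fabp6* under 100 FPKM, an alternative chosen after seeing the data. The log2 change of *Dhrs3* was -0.57 and of *Aldh1a1* 0.43 below the median, and that of *Aldh1a3* -0.43 above it and -0.38 with *Fabp6* under 100 FPKM, none past the threshold; these fits hold fewer mice. *Aldh1a2* turned to 0.17 by voom, 0.51 above the median, 0.19 with *Fabp6* under 100 FPKM, 0.049 with a pseudocount of 0.1 and 0.13 with the replicate block, and ran from -0.19 to 0.13 with single mice left out (0.12 without AIMD replicate 4, and 0.05, 0.07 and 0.13 without vehicle replicates 6, 7 and 8); no cause was tested.

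Of the other retinoid genes, 19 were called, against 9 above the clock-gene median. Higher ones numbered 4 there. Lower ones, 9 in all mice, numbered 5 above and 5 below the median, 4 by the exact rank-sum test, 6 with no filter and 5 to 9 with a mouse left out (5 without AIMD replicate 1, 5, 6 or 7 or vehicle replicate 4). All genes called fell from 4320 to 1882 above and 2481 below the median (1034 and 1344 higher, 848 and 1137 lower). Lower calls over all genes numbered 1780 by the exact rank-sum test, 1813 with no filter and 1606 to 2235 with a mouse left out. The replicate numbers do not pair mice: deviations of the 7 same-numbered pairs correlated from -0.35 to 0.43, 2 of them above 0.1, and 1 AIMD mouse correlated best with its own number. With the replicate block 4651 genes and the same 5 members were called. *Rdh7*, *Bco1* and *Aldh1a2* rest on few reads, at most 9, 35 and 43 in a mouse. In vehicle-treated mice *Lrat* also does, with at most 44.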
